A study of Mus musculus with 6 samples.

Results

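The 4 connexin genes Gja1, Gjb2, Gjb5 and Gjb6 were followed in mouse skin carrying a targeted Hoxc13 allele. They were picked by gene symbol and not by a threshold on their values, with earlier results of these data known, and all 4 were found, each as 1 probe set among the 16331 non-control probe sets of the array. The samples were 3 mutant skins, labelled as a Hoxc13 knockout with the allele Hoxc13tm1Mrc, and 3 wild type skins. All 6 were dissected skin at 5 dpn (the age code of the sample titles) on a C57BL/6 background, and the labels give every animal as male. The labels name neither the zygosity of the mutants nor whether samples were pooled. Values are log2 RMA values, the authors' background-corrected, quantile-normalised array summaries, so a difference of -1 is a halving on that scale. The comparison asks how transcripts of gap junction proteins differ in skin when Hoxc13, a homeobox factor of the hair follicle, is altered.

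Connexins are membrane proteins that assemble into rings, and rings of adjoining cells dock to form gap junction channels that pass ions and small molecules. Keratinocytes make several connexins, which differ between the layers of the epidermis and of the hair follicle. Human mutations in GJB2 cause deafness, in some alleles with thickened skin, and mutations in GJB6 cause a disorder of hair, nails and palms.

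The Hoxc13 probe set read 8.95, 8.75 and 9.74 in mutant skin, against 9.63, 9.81 and 9.83 in wild type skin. Its difference was -0.61 (SE 0.23, limma adjusted p = 0.293) with all arrays and -0.90 (adjusted p = 0.00114) without mutant replicate 3. The sources used here do not say where its probes lie relative to the targeted change, so the level is no check of genotype. Mutant replicate 3 stood apart, with a correlation across probe sets of 0.989 and 0.990 with the other mutant arrays, which correlated at 0.997 with each other. Connexin results are given with and without it. Xist, the RNA of the inactive X chromosome, read 11.15 to 11.67 on all 6 arrays, and 6 Y-linked probe sets read 2.98 to 4.89, against the label of male animals. The keratinocyte markers Krt5, Krt14, Krt1 and Krt10 read between 12.51 and 14.13 on every array.

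Gjb5 had the largest difference of the 4 genes, with lower values in all mutant skins than in any wild type skin. Gja1, Gjb2 and Gjb6 had overlapping groups and differences between -0.13 and -0.05. With all 6 arrays 0 of the 4 passed the test (limma, adjusted p under 0.05 over all probe sets), where 2.08% of all probe sets did, and 1 of the 4 had an unadjusted p under 0.05, where 14.4% of all probe sets did. Without mutant replicate 3, Gjb5 alone passed, where 14.2% of all probe sets did and 6.23% did so with lower values in mutant skin. The median difference of the 4 genes was -0.12, beside 0.0247 for all probe sets, and without mutant replicate 3 it was -0.30, beside 0.0160. Skin is a mixture of cells, and fewer cells of a type cannot be told apart from less RNA per cell in these data.

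Gja1 encodes Cx43, the most widely distributed connexin, made by keratinocytes, fibroblasts and vessel cells. It read 12.91, 12.91 and 13.22 in mutant skin, against 13.01, 13.17 and 13.17 in wild type skin. Mutant replicates 1 and 2 lay below every wild type value and mutant replicate 3 above every one. The means were 13.02 ± 0.18 in mutant and 13.12 ± 0.10 in wild type skin (SD, n = 3 each), and the difference was -0.10 (SE 0.11, 95% interval -0.35 to 0.14, limma adjusted p = 0.716). Leaving out mutant replicate 3 gave -0.20 (adjusted p = 0.130).

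Gjb2 encodes Cx26, a connexin of the hair follicle and of thick or wounded epidermis. It read 12.33, 12.57 and 12.99 in mutant skin, against 12.56, 12.78 and 12.94 in wild type skin. The groups overlapped, with the lowest and the highest of the 6 values both in mutant skin. Its means were 12.63 ± 0.33 in mutant and 12.76 ± 0.19 in wild type skin (SD, n = 3 each). The difference of -0.13 (SE 0.17, interval -0.53 to 0.27) did not pass limma's test (adjusted p = 0.777). Its sign was not stable, being 0.0165 without mutant replicate 1 and -0.31 without mutant replicate 3 (adjusted p = 0.988 and 0.137).

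Gjb6 encodes Cx30, which can share channels with Cx26 and is found in differentiated epidermis and the follicle. It read 10.02, 10.25 and 10.84 in mutant skin, against 10.45, 10.33 and 10.51 in wild type skin. The mutant values spread on both sides of the narrow wild type range, 2 below it and 1 above it. The means were 10.37 ± 0.42 in mutant and 10.43 ± 0.09 in wild type skin (SD, n = 3 each), and the difference was -0.05 (SE 0.19, interval -0.50 to 0.39, limma adjusted p = 0.934). Without mutant replicates 1, 2 or 3 it was 0.12, 0.00633 or -0.29 (adjusted p = 0.883, 0.995 and 0.0851).

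Gjb5 encodes Cx31.1, a connexin of differentiating mouse keratinocytes. It read 8.57, 8.59 and 7.81 in mutant skin, against 9.13, 9.05 and 9.15 in wild type skin. No mutant value reached the wild type range, and mutant replicate 3 was the lowest of the 6. Such separation with mutant lower was found in 7.82% of all probe sets. The means were 8.32 ± 0.44 in mutant and 9.11 ± 0.06 in wild type skin (SD, n = 3 each), a mutant level of 58.0% of wild type on the RMA scale. The difference of -0.79 (SE 0.20, interval -1.25 to -0.33) had an unadjusted p of 0.00462 in the limma fit and did not pass after adjustment (adjusted p = 0.116). Without mutant replicate 3 the difference was smaller, -0.53 (SE 0.07), and passed (adjusted p = 0.00316). Among all probe sets, 3.97% had an unadjusted p as small.

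**Figure D1:**
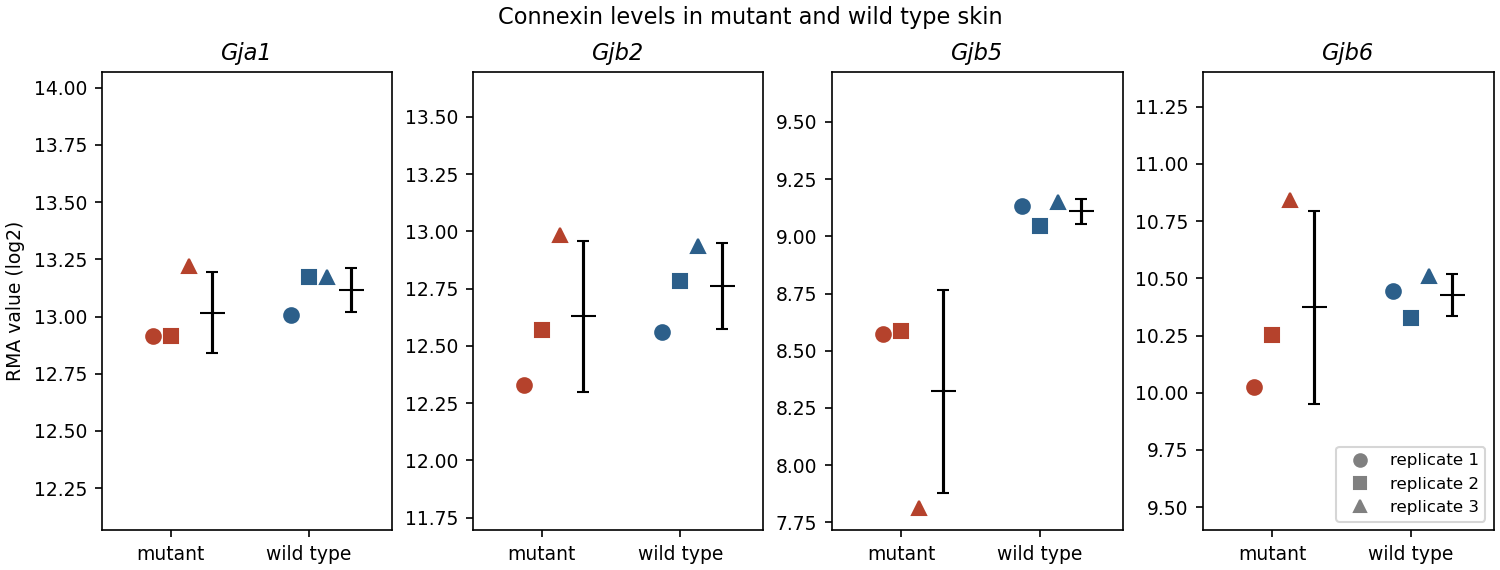
RMA values (log2) of the 4 connexins on each array, mutant left of wild type; every panel spans 2 log2 units. Symbols mark replicate numbers, and bars give the mean and SD of 3 arrays. Gjb5 alone has all mutant values (7.81 to 8.59) below the wild type values (9.05 to 9.15).

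Mutant replicate 3 lay farthest from the mutant mean for all 4 genes. In mutant replicate 3, Gja1, Gjb2 and Gjb6 lay 0.31, 0.53 and 0.70 above the mean of the other mutant arrays, and Gjb5 lay 0.77 below it. Of all probe sets, 44.7% were higher on this array than on both other mutant arrays and 37.5% were lower. The mutant SD exceeded the wild type SD for each gene. Centred on their own means, Gja1 and Gjb2 had profiles over the 6 arrays with a root mean square difference of 0.12, Gjb2 and Gjb6 of 0.13, and Gja1 and Gjb6 of 0.17. Gjb5 differed from Gja1, Gjb2 and Gjb6 by 0.50, 0.56 and 0.62.

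The genes lie in 3 places in the RefSeq gene order of GRCm38.p6. Gja3, Gjb2 and Gjb6 are consecutive protein-coding genes on chromosome 14, and Gjb5 lies on chromosome 4. Gja1 lies on chromosome 10 with no connexin beside it. The start regions of Gjb5, which differed most, and of the neighbours Gjb2 and Gjb6 are shown from RefSeq (GRCm38.p6), each with 250 bases before and 50 after the annotated start. Capitals mark matches on either strand to the TATA box letters TATAAA, to the GC box letters GGGCGG, to the core TTTAT preferred by Hox proteins of the Abd-B type, to which Hoxc13 belongs, to the variant of that core written TTTAC, and to the AP-1 site, searched as TGACTCA and likewise as TGAGTCA.
Gjb5, chr4:127358115-127358414, minus strand: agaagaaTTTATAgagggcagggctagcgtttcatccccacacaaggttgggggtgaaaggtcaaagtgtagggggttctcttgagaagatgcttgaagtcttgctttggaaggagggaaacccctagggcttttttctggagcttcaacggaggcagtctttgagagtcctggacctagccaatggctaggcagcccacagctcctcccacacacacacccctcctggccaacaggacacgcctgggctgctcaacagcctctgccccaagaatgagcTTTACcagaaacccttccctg
Gjb2, chr14:57104653-57104952, minus strand: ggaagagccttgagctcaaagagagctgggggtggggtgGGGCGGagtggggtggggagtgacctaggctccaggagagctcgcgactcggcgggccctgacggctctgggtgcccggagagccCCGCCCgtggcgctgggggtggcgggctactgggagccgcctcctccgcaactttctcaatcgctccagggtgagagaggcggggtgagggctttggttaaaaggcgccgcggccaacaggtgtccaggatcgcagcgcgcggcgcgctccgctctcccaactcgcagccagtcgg
Gjb6, chr14:57133562-57133861, minus strand: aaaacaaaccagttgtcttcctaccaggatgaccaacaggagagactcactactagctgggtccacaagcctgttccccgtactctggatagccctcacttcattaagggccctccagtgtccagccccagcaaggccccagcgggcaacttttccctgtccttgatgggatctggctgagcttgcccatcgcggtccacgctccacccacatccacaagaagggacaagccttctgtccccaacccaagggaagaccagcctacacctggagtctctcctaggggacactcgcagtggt

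All 4 genes had a start region in this set of 32851. The Gjb2 region was rich in G and C, at 70.0%, with 27 CpG, and held GGGCGG at 2 places. Gjb6, though its neighbour, had 57.3% and 6 CpG and matched none of the motifs, which says only that these letters are not in this window. Gjb5 had 54.3% and 3 CpG, close to the median of 52.7% over all regions. It held the variant TTTAC once after the start. The core TTTAT stood once at its far end, and that match overlaps the TATA box letters on the other strand. The Gja1 region (47.7%) held the core TTTAT once, its variant TTTAC once and the AP-1 letters TGAGTCA once. The core TTTAT occurred in 40% of all regions, its variant in 31.5%, the GC box in 35.7%, the TATA box in 13.6% and the AP-1 letters in 5.2%. These matches are descriptions of sequence and were not tested for binding.

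Of the rest of the family, 10 other connexins and 2 pannexins had a probe set and were analysed here. Gja3, a connexin best known from the lens, was the only one of these 12 that passed, beside 1.6% of all probe sets called lower. It read 5.59, 5.90 and 5.87 in mutant skin, against 6.58, 6.46 and 6.57 in wild type skin. The groups were apart by more than either spread. Gja3 fell by 0.75 on the log2 scale (SE 0.10, adjusted p = 0.00975), and by 0.79 without mutant replicate 3 (adjusted p = 0.00276). The call was lost without wild type replicates 1 or 3 (adjusted p = 0.0654 and 0.0638) and with ordinary unmoderated variances (adjusted p = 0.124). Gja3 lay below the 40th percentile of mean levels, and no detection calls tell whether it exceeded background. Its neighbours Gjb2 and Gjb6 overlapped between groups, as did Cryl1, the next gene on that side, at 0.0127 (adjusted p = 0.969). Cryl1 was looked at for its position after its values were known.

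Vessel and glial connexins did not pass. Gja4 and Gja5, connexins of endothelium, differed by 0.10 (interval -0.08 to 0.27) and -0.12 (interval -0.32 to 0.08). Gjc1, which encodes Cx45 of vessels and heart, read 8.03, 8.09 and 7.57 in mutant skin, against 7.63, 7.67 and 7.69 in wild type skin. Mutant replicates 1 and 2 were above the wild type range and mutant replicate 3 below it. Its difference was 0.23 (limma adjusted p = 0.479), and without mutant replicate 3 Gjc1 was higher in mutant skin by 0.40 (adjusted p = 0.00950), beside 7.95% of all probe sets called higher in that fit. Gjc3 of glia was at 0.21, Gjb1 of liver and Schwann cells at -0.02, Gjd2 of neurons at 0.0010, Gja10 of the retina at 0.06, Gjd4 at -0.03 and Gje1 at -0.09. The values of Gja5, Gja10, Gjb1, Gjd2 and Gje1 lay between 3.04 and 5.06. The Y-linked probe sets reached 4.89 through Usp9y and at most 4.19 otherwise, so Gje1 lay within the range of the others, Gjb1 around its top, and Gja5, Gja10 and Gjd2 above it, near Usp9y. No detection calls tell which of them exceeded background.

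Pannexins form single-membrane channels that release ATP. Panx1 read 8.20, 8.07 and 8.19 in mutant skin, against 8.47, 8.40 and 8.49 in wild type skin. The groups did not overlap, as was so with mutant lower in 7.82% of all probe sets. The difference of -0.30 (SE 0.07) missed the threshold (limma adjusted p = 0.105), while without mutant replicate 3 it was -0.32 (adjusted p = 0.0304). Panx3, a pannexin of skin and skeleton, read 5.80, 6.17 and 6.78 in mutant skin, against 6.99, 6.72 and 7.36 in wild type skin. One mutant value lay inside the wild type range. Its difference was -0.77 (SE 0.26, adjusted p = 0.225), and -1.04 without mutant replicate 3 (adjusted p = 0.0112). The median over the 10 other connexins was -0.01, and without mutant replicate 3 it was -0.02.

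**Figure D2:**
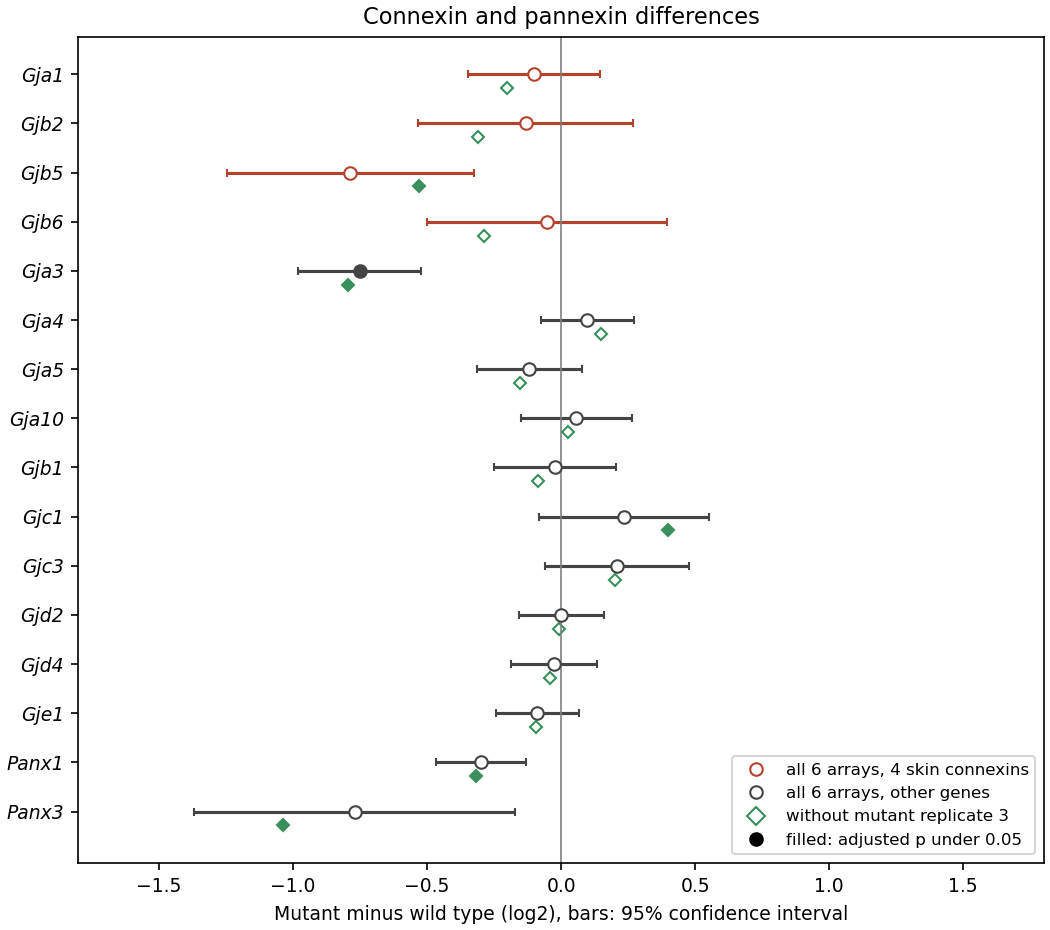
Mutant minus wild type difference (log2) of the 4 skin connexins, 10 other connexins and 2 pannexins, as circles with 95% confidence intervals from all 6 arrays and as diamonds without mutant replicate 3. Filled symbols have an adjusted p under 0.05. Gja3 (-0.75) is the only filled circle, and Gjb5 (-0.53), Gja3, Gjc1, Panx1 and Panx3 are the filled diamonds.

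Of 11 measured partners and regulators of connexins, 0 passed with all 6 arrays, where 2.08% of all probe sets did. Tjp1 alone had an unadjusted p under 0.05, where 14.4% of all probe sets did. Tjp1 encodes ZO-1, the scaffold that binds the tail of Cx43. It read 10.70, 10.68 and 10.87 in mutant skin, against 11.04, 11.09 and 10.95 in wild type skin. The groups did not overlap, as was so with mutant lower in 7.82% of all probe sets. Ccn3 of this list was also apart, with mutant skin higher (8.82 to 8.96, against 8.64 to 8.78). Its difference was 0.15 (limma adjusted p = 0.412), and the share of all probe sets apart with mutant higher was not computed. The difference of Tjp1 was -0.27 (SE 0.08, limma adjusted p = 0.183), and -0.33 without mutant replicate 3 (adjusted p = 0.0229). In that fit Tjp1 was the only one of the 11 to pass, where 14.2% of all probe sets did. The others, among them Cdh1 (E-cadherin, 0.03), Ctnnb1 (beta-catenin, 0.15), Cav1 (caveolin, 0.10) and Nedd4 (a ubiquitin ligase, 0.17), differed by between -0.10 and 0.17. The median of the list was 0.10.

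Marker lists of the cell types in skin differed in how many genes passed. All 10 measured hair shaft keratins fell, with list means of 5.87, 6.04 and 5.51 in mutant skin, against 11.69, 11.36 and 11.50 in wild type skin. Krt35, Krt82, Krt33b and Krt31 fell by 6.91, 5.30, 6.13 and 6.43 (adjusted p = 3.32e-07, 3.93e-07, 5.16e-07 and 7.08e-07). Of 8 inner root sheath genes 2 fell, beside 1.6% of all probe sets called lower. Krt26 fell by 1.90 (adjusted p = 1.72e-04) and Krt72 fell by 2.20 (adjusted p = 0.0106). Without mutant replicate 3, 4 of the 8 fell, beside 6.23% of all probe sets called lower. The Krt72 call was lost without any single wild type array or without mutant replicate 2 (lowest adjusted p of these 0.0509, highest 0.0671).

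Among 10 spinous and granular keratinocyte genes, Tgm3, a transglutaminase of cornification and of the follicle, fell by 1.43 (SE 0.11, adjusted p = 6.00e-04) and Ivl (involucrin) by 0.74 (SE 0.09, adjusted p = 0.00559). The other 8 did not pass. Without mutant replicate 3, Tgm1 (-0.55, adjusted p = 0.00549) and Krt2 (-0.34, adjusted p = 0.0203) passed as well, making 4 of 10 lower, where 6.23% of all probe sets were. Krt2 read 3.61 to 4.04 over the 6 arrays, within the 2.98 to 4.19 of the Y-linked probe sets without Usp9y. Ivl read 9.29, 9.21 and 9.06 in mutant skin, against 9.96, 9.83 and 9.998 in wild type skin. Like Gjb5, Ivl was lowest in mutant replicate 3, whereas Tgm3 (7.89), Tgm1 (10.26) and Krt2 (3.85) were there each highest among the mutant arrays. The list means were 10.63, 10.63 and 10.69 in mutant skin, against 10.85, 10.88 and 10.87 in wild type skin, while the median difference was 0.03. The part of these cells in the Gjb5 values was not tested.

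Of 7 basal keratinocyte genes 0 passed, where 2.08% of all probe sets did, with Itga6 nearest (0.35, adjusted p = 0.0723) and a median of 0.20. Without mutant replicate 3, Itga6 passed (0.34, adjusted p = 0.0305), beside 7.95% of all probe sets called higher, and the list median was 0.05. In mutant replicate 3, 6 of these 7 were higher than the other mutant arrays' mean (list median 0.41), and so did 3 of 4 outer root sheath and companion layer genes and all 8 inner root sheath genes. The same held for all 8 melanocyte genes (list median 0.55), 8 of 11 partners, 5 of 10 spinous and granular genes, 2 of 6 fibroblast and 2 of 6 endothelial genes, 1 of 10 hair shaft keratins, and 0 of the muscle, fat and macrophage genes. Over all probe sets that share was not computed, while 44.7% were above both other mutant arrays and 37.5% below both. Outer root sheath and companion layer list means were 10.22, 10.26 and 10.89 in mutant skin, against 10.50, 10.40 and 10.71 in wild type skin, with Krt6b nearest to the threshold (-0.67, adjusted p = 0.391). The list mean of mutant replicate 3 was the highest of the 6, as its value was for Gja1, Gjb2 and Gjb6. That was also so for the basal keratinocyte (11.32) and partner (10.10) list means, while Krt6b was lowest on that array (5.89). Without mutant replicate 3, Krt75 of the outer root sheath and companion layer list passed (-0.44, adjusted p = 0.00830), beside 6.23% of all probe sets called lower. The part of these layers in the values of those connexins was not tested.

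Of 8 melanocyte genes Gpr143 fell by 0.67 (adjusted p = 0.0247) and Mc1r by 0.47 (adjusted p = 0.0435), beside 1.6% of all probe sets called lower. Both calls were lost in each of the 5 fits that dropped an array other than mutant replicate 3. Without mutant replicate 3, 7 of 8 fell, beside 6.23% of all probe sets called lower. None passed among 6 fibroblast genes (Pdgfra, 0.37, adjusted p = 0.148), 6 endothelial genes (Tie1, 0.22, adjusted p = 0.439), 6 skeletal muscle genes (Myh1, 0.59, adjusted p = 0.128), 4 fat cell genes (Lep, -1.44, adjusted p = 0.139) and 4 macrophage genes (Csf1r, 0.26, adjusted p = 0.376), each with the gene of smallest p named. Of all probe sets, 2.08% passed with all arrays. Without mutant replicate 3, the genes called higher were Pdgfra of fibroblasts (0.45, adjusted p = 0.0139), Myh1 and Tnnt3 of muscle (0.64 and 1.36, adjusted p = 0.0403 and 0.0253), Adipoq and Cidec of fat cells (0.60 and 0.42, adjusted p = 0.0127 and 0.0162) and Adgre1 of macrophages (0.55, adjusted p = 0.00330), and no endothelial gene passed. In that fit 7.95% of all probe sets were called higher. The fibroblast and endothelial list medians were -0.01 and -0.02, and those of muscle, fat and macrophages 0.70, 0.08 and 0.30.

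**Figure D3:**
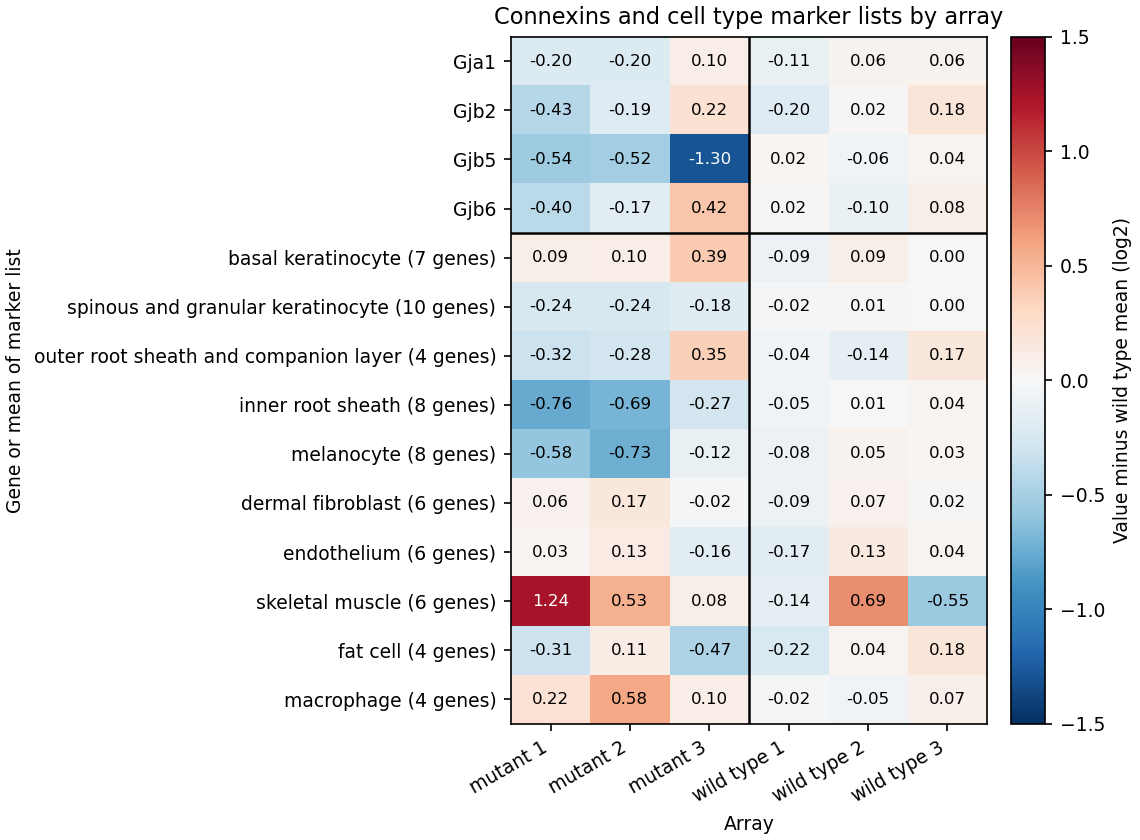
Value on each array minus the wild type mean (log2) for the 4 connexins (above the line) and for the means of 10 cell type marker lists, with mutant arrays left of wild type arrays. In mutant replicate 3, Gjb6 (0.42), the basal keratinocyte list (0.39) and the outer root sheath list (0.35) are above wild type, while Gjb5 is at -1.30.

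The named genes nearest to each connexin were found by the root mean square difference of centred values over the 6 arrays, given as a description. For Gjb5 they were Serpinb2 (0.11), Rab44 (0.13) and Nrcam (0.13), where the median over all named genes was 0.50. Serpinb2, a serine protease inhibitor made by keratinocytes and macrophages, read 9.66, 9.55 and 9.12 in mutant skin, against 10.23, 10.20 and 10.16 in wild type skin. Like Gjb5 it was lower in every mutant skin and lowest in mutant replicate 3. Serpinb2 and Rab44 differed by -0.75 and -0.73 and passed the test (adjusted p = 0.0384 and 0.0390), and Nrcam, a neural cell adhesion molecule, differed by -0.89 (adjusted p = 0.0549). These genes were chosen for values like those of Gjb5, so their pattern and differences follow from the choice and are no separate result.

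For Gja1 the nearest were Gabpb1 (0.0149), Ppp4r3b (0.0208) and Eps15 (0.0244), with a median over all named genes of 0.16. For Gjb2 they were Slc43a2 (0.0296), Fam199x (0.0391) and Ncoa3 (0.0496), with a median of 0.25, and for Gjb6 Ildr1 (0.0377), Cxcl12 (0.0661) and Wwc1 (0.0685), with a median of 0.27. The differences of these 9 genes between the groups ran from -0.14 to -0.04, and 0 passed. That too follows largely from choosing them for values like those of the connexins. No connexin was among the 3 nearest genes of another connexin.

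**Figure D4:**
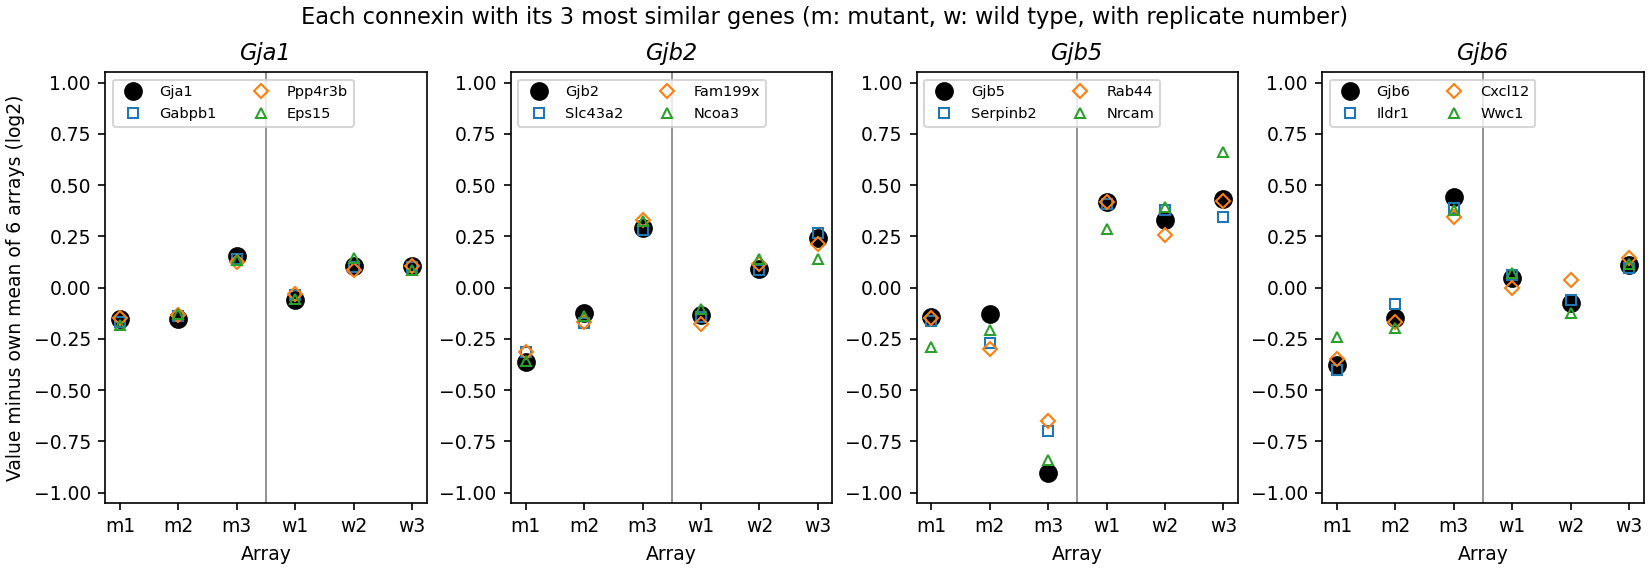
Values on the 6 arrays minus each gene's own mean (log2) for every connexin (filled circles) and its 3 most similar genes (open symbols), with mutant arrays left of the line. Gjb5, Serpinb2, Rab44 and Nrcam are lowest in mutant replicate 3, where Gja1, Gjb2 and Gjb6 and their nearest genes are at or near their highest.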

How the data were processed

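Total RNA of 6 dissected skins was hybridised to Affymetrix arrays after oligo(dT)-primed amplification, per the labels' protocols, which reads transcript 3′ ends. The authors deposited log2 values made with RMA, per the submitters' processing notes. The sources used here give no version. RMA equalises the arrays' distributions (median 7.405 on each), which hides any shift in total RNA, and low values are compressed towards background. Detection calls were not part of the table used.

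The table held 16395 probe sets; 64 controls were left out and 16331 tested, 15644 of them with 1 gene symbol in the array annotation. Mutant and wild type arrays (3 each, independent per the design text) were set against each other in R 4.3.3 with limma 3.58.1 (lmFit, eBayes, two-sided, no filter or block), adjusted by Benjamini-Hochberg over all probe sets at 0.05, and tested on simulated data. Figures used Python 3.11.15 and matplotlib 3.10.9.

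The members and lists were chosen with earlier results of these data known. Named were the 4 members, every other measured connexin and pannexin, up to 4 called genes of each other list (or that of smallest p), Hoxc13, Xist, the Y-linked genes and the 3 genes nearest each member. Named beyond this rule, after their values were seen, were Cdh1, Ctnnb1, Cav1, Nedd4, Ccn3, Krt5, Krt14, Krt1, Krt10 and Cryl1. So were Flg, Lor, Dsg1a and Dsc1, and other list genes given from the fit without mutant replicate 3. Alternatives were a filter on low mean levels (below the 40th percentile), repeated quantile normalisation, median centring, array weights, a robust prior with an intensity trend, ordinary unmoderated variances, the replicate number as covariate, and dropping 1 array at a time. The number of arrays limits the precision.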

Additional observations from a re-analysis of the deposited data

How the results depend on the processing

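Gja1, Gjb2, Gjb5 and Gjb6 kept their direction and their side of the threshold under the low-level filter, repeated quantile normalisation, median centring, the trend with a robust prior, the replicate block and no moderation. With array weights Gjb5 passed at -0.59 (adjusted p = 0.0149), and the other 3 were unmoved in call and direction. Leaving out 1 array at a time gave -0.20 to -0.05 for Gja1, -0.31 to 0.0165 for Gjb2, -0.92 to -0.53 for Gjb5 and -0.29 to 0.12 for Gjb6. Among uncalled genes these fits ranged across 0 for Gjb1 (-0.0853 to 0.0727), Gjd2 (-0.0287 to 0.0262) and Gjd4 (-0.0563 to 0.000667), and array weights put Gjd2 at -0.00572.

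The number of called probe sets, 339, became 1880 with array weights, 197 with the replicate block and 84 without moderation, and 151 to 2316 when 1 array was left out. Array weights and the fit without mutant replicate 3 both give that array little or no say. Of the 12 other connexins and pannexins 1 was called, against 0 under the low-level filter (which left Gja3 out), 0 without moderation, 4 with array weights and 0 to 4 when 1 array was left out. Of 11 partners 0 were called, against 1 with array weights and 0 to 1 when 1 array was left out. Same-numbered mutant and wild type arrays did not deviate together (correlations of 0.0360, -0.12 and -0.0873), and none of the mutant arrays correlated best with its own number, so the numbers were not taken as pairs. The cause of these shifts was not tested.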
